A study of Mus musculus with 2 samples.

Results

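The 6 genes Lhcgr, Prlr, Insl3, Nr5a1, Gata4 and Fabp3 encode hormone receptors, a hormone, transcription factors and a fatty acid carrier of Leydig cells, the androgen-producing cells between the seminiferous tubules. They were taken by symbol from both count tables, where all 6 were found among 41061 genes with a count in either table. Single cells of mouse testis were measured on the BD Rhapsody system in 1 library from mice aged 24 months (aged) and 1 library from mice aged 2 months (young). Both suspensions were prepared alike, from testes freed of the tunica, minced and digested with accutase. The strain, any genotype or treatment other than age, and the number of mice per library are not given in the sources used here.

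Luteinizing hormone from the pituitary binds Lhcgr on Leydig cells, a receptor that acts through a stimulatory G protein, cyclic AMP and protein kinase A to raise steroid synthesis. Nr5a1 (steroidogenic factor 1) and Gata4 are DNA-binding factors that act on the promoters of steroidogenic genes, and Nr5a1 is also made by Sertoli cells, while Gata4 is known from Leydig, Sertoli and other stromal cells of the gonad. Insl3 is a peptide hormone of Leydig cells known for its part in descent of the testis, and it signals through the receptor Rxfp2.

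After filtering and removal of called doublets, 5691 aged and 2732 young cells were analysed, with medians of 11381 and 15649.5 counts per cell. The shallowest cell of the aged table had 186 counts and that of the young library 3215, and 35 cell numbers occurred in both tables. Cells were grouped without the 6 genes, and 2 clusters with all 6 markers of steroid synthesis (Cyp11a1, Cyp17a1, Hsd3b1, Hsd3b6, Star and Hsd17b3) were called Leydig-like. They held 576 aged cells, 10.1% of that library (95% interval 9.35 to 10.9), and 1087 young cells, 39.8% (37.9 to 41.7), with medians of 4752 and 6938 counts per cell. The 6 markers summed to 17507 CPM, counts per 1000000 counts of a class, in aged and 22868 CPM in young Leydig-like cells. The cluster led by Fetub, Cxcl10, Cxcl1 and Irf1, of which Cxcl10, Cxcl1 and Irf1 are immune response genes, held 538 aged and 50 young cells, and the cluster led by Klk1b21, Klk1b27 and Klk1b24 held 38 aged and 1037 young cells, so that different clusters hold most Leydig-like cells of each library. The labels call the cells stroma cells, but spermatocyte-like cells alone were 40.2% of the aged and 24.0% of the young cells.

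Since each age has 1 library, differences could not be checked against replicates and were not tested. Intervals are exact 95% intervals that cover counting error only, and ratios are aged over young. Across whole libraries the 6 genes had ratios between 0.205 for Insl3 and 0.338 for Prlr. Most of their counts lay in Leydig-like cells, 78.2% to 93.3% of each gene's counts in the aged and 91.7% to 95.2% in the young library, and these cells were a smaller share of the aged cells. Within Leydig-like cells the ratios lay between 0.672 and 1.10. At a limit of 1.5-fold, 0 of the 6 genes were higher and 0 were lower, against 11.0% and 13.6% (24.6% in either direction) of the 15285 genes with 10 or more counts. That background was not matched for level, since each of the 6 genes had 210 or more counts in either library. With 6 genes the contrast does not show that they were more stable than other genes. The median log2 ratio of those 15285 genes was -0.017. Insl3 was closest to the limit and passed it under 7 of the 11 alternatives listed at the start, down to a ratio of 0.638.

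**Figure D1:**
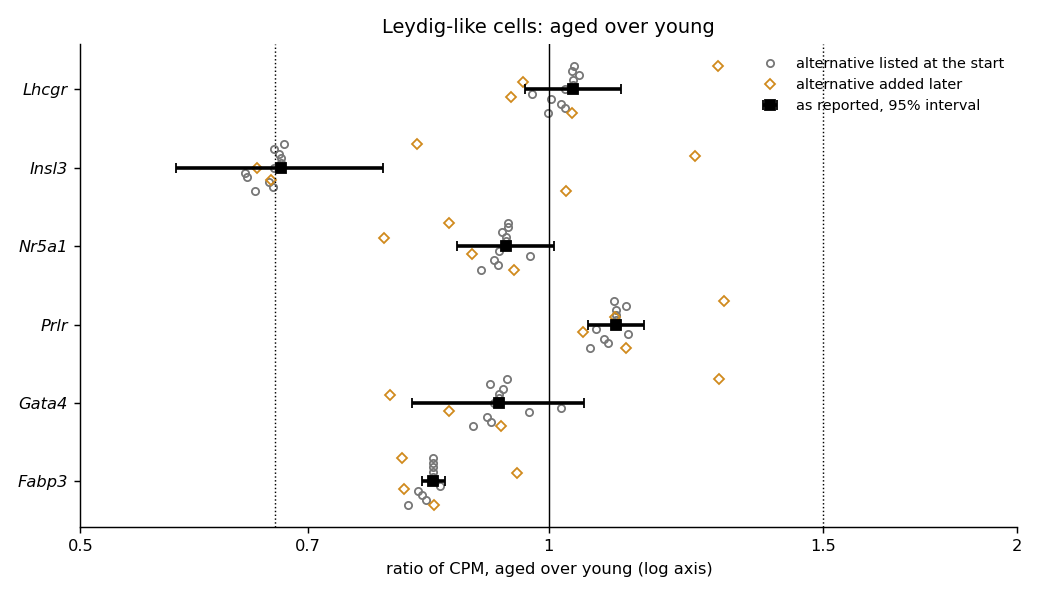
Ratio of CPM in Leydig-like cells, aged over young, on a log axis for the 6 genes. Black squares are the reported ratios with their 95% counting intervals, circles and diamonds are the alternatives described with the processing, and dotted lines mark 1.5-fold. Insl3 is farthest from 1 at 0.672, and its diamonds at 1.24 and 1.03 lie on the other side of 1.

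The receptor for luteinizing hormone was at near the same level at both ages. Lhcgr (ENSMUSG00000024107.7; chr17:88716481-88791990, minus strand, GRCm38, 11 exons) was at 377 CPM in aged Leydig-like cells (355 to 401; 1045 counts), against 364 CPM in young Leydig-like cells (351 to 378; 2882 counts). The ratio was 1.04 (0.965 to 1.11), and the intervals of the levels overlap. The level was less even among aged cells. Per 10000 counts of a cell, the 75th and 90th percentiles of Lhcgr were 5.13 and 9.04 counts in aged Leydig-like cells, and 5.21 and 7.60 counts in young ones. With every cell thinned to 2000 counts, the variance over the mean of Lhcgr counts was 1.53 in aged and 1.13 in young cells, at means of 0.735 and 0.753 counts. This contrast was chosen after the values had been seen. In the other named classes Lhcgr had few counts, with 3 in aged and 0 in young stromal fibroblast-like cells, and 0 in Sertoli-like cells of either library. Cells left unnamed had 54 counts in the aged and 127 counts in the young library, at 29.6 and 199 CPM. All of these counts lay in a cluster with both macrophage and Leydig markers, at 105 CPM in its 130 aged and 218 CPM in its 84 young cells. Germ cells had traces of Lhcgr, 0.303 CPM in aged and 0.469 CPM in young spermatocyte-like cells, and 0.238 CPM in aged and 1.40 CPM in young round spermatid-like cells. For every 100 counts of Fabp3, Lhcgr had 5.22 counts in aged and 2.68 in young spermatocyte-like cells. The values were 2.96 in aged and 5.33 in young round spermatid-like cells, against 5.76 and 4.69 in aged and young Leydig-like cells. The part of RNA released from Leydig cells in these traces was not tested.

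Prlr, the single-pass receptor for prolactin that signals through Jak2 and Stat5, was slightly higher in aged Leydig-like cells. It lies at chr15:10177238-10349180 on the plus strand (ENSMUSG00000005268.20). Its level was 1122 CPM in aged (1083 to 1162; 3108 counts) and 1017 CPM in young Leydig-like cells (994 to 1039; 8048 counts), a ratio of 1.10 (1.06 to 1.15). The intervals do not overlap, and the difference is far below the 1.5-fold limit. Prlr was also read in stromal fibroblast-like cells, at 248 CPM in 130 aged cells (184 to 327) and 298 CPM in 17 young cells (189 to 447). It had 0 counts in Sertoli-like cells of both libraries, which allows up to 21.7 CPM in the aged and 17.5 CPM in the young cells. Prlr shares 203 exonic bases with the gene model Gm21973 on the same strand, so its counts may depend on how shared reads were counted. Gm21973 itself is not among the genes of either count table.

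Insl3 had the ratio farthest from 1, and its value may depend on how reads shared with an overlapping gene were counted. Insl3 (ENSMUSG00000079019.2; chr8:71689214-71690575, plus strand, GRCm38, 2 exons) was at 75.8 CPM in aged Leydig-like cells (65.9 to 86.8; 210 counts), against 113 CPM in young Leydig-like cells (106 to 120; 893 counts). The aged level was 1.49-fold lower (ratio 0.672, 0.576 to 0.782), and the intervals do not overlap. The whole of Insl3 lies inside the annotated span of Jak3 on the same strand (chr8:71676296-71690575), and 404 of its 623 exonic bases are also exonic in Jak3, a kinase gene best known from lymphocytes. How the authors' counting treated reads in the shared bases is not stated.

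Jak3 differed the other way. It was at 96.1 CPM in aged (84.9 to 108; 266 counts) and 54.8 CPM in young Leydig-like cells (49.8 to 60.2; 434 counts), a ratio of 1.75. In young macrophage-like cells Jak3 was at 7.99 CPM, and in spermatocyte-like cells at 3.83 CPM in the aged and 6.14 CPM in the young library, so its level was higher in Leydig-like cells than in these classes. Insl3 made up 44.1% of the counts of the 2 genes together in aged and 67.3% in young Leydig-like cells. Added together, Insl3 and Jak3 were at 172 CPM in aged (157 to 188) and 168 CPM in young cells (159 to 177), a ratio of 1.03 (0.922 to 1.14). This sum was chosen after the data had been seen. In the cluster led by Fetub the sum was higher in aged cells. It was at 172 CPM (157 to 189), against 108 CPM in young cells (74.6 to 151). The ratio was 1.60 (1.13 to 2.33) on 34 young counts, and that of Jak3 alone was 2.05 (1.22 to 3.71). In the cluster led by Klk1b21 the ratio of the sum was 0.993 (0.640 to 1.47). Whether reads moved between the overlapping genes was not tested.

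The level of Insl3 was also compared by cluster. In the cluster led by Fetub, Insl3 was at 74.8 CPM in aged (64.7 to 86.0) and 60.2 CPM in young cells (36.3 to 94.0; 19 counts), a ratio of 1.24. In the cluster led by Klk1b21 it was at 94.6 CPM in aged (51.7 to 159; 14 counts) and 115 CPM in young cells (107 to 123), a ratio of 0.823. Between the clusters the intervals overlap in aged cells and do not overlap in young cells. Within each cluster the intervals of the ages overlap, so the lower Insl3 level over all Leydig-like cells is not resolved inside either cluster at these counts.

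**Figure D2:**
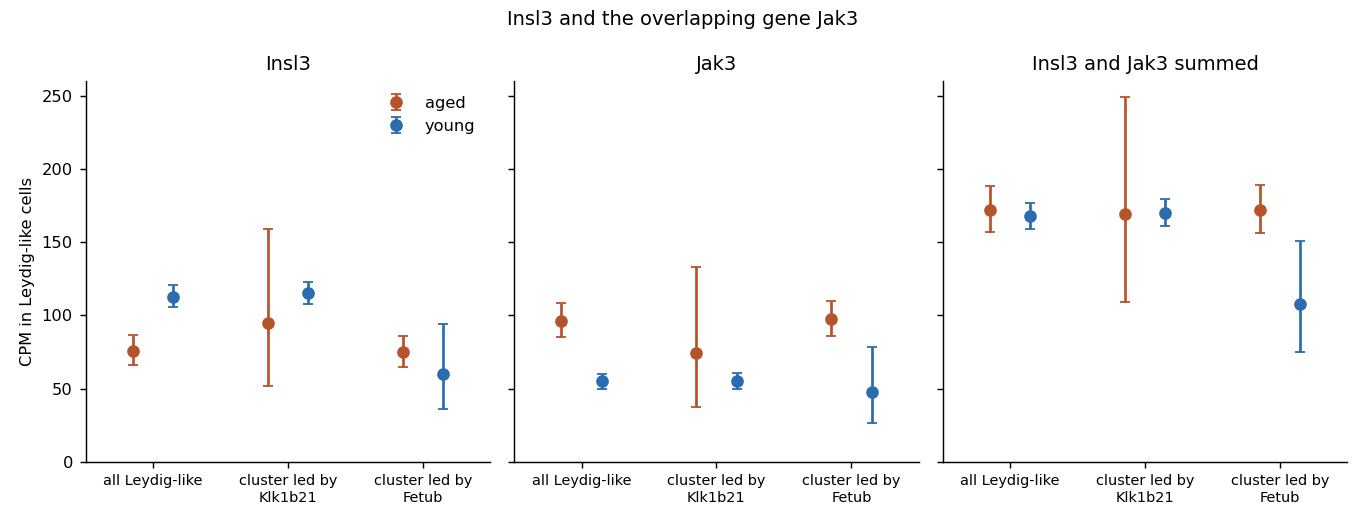
CPM of Insl3, of Jak3 and of their summed counts in all Leydig-like cells and in the clusters led by Klk1b21 and by Fetub, aged (brown) left of young (blue), with exact 95% counting intervals. Over all Leydig-like cells Insl3 is lower in aged (75.8 against 113 CPM), Jak3 is higher in aged (96.1 against 54.8 CPM), and the sums are 172 and 168 CPM.

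The start of Insl3 is shown because it alone among the 6 member promoters holds the core of the element that Nr5a1 binds, and because it lies inside Jak3. The line below gives the 212 bases at chr8:71689002-71689213 of GRCm38.p6, plus strand, from RefSeq, up to the start of the gene in GENCODE M21. Capitals mark AAGGTC on the plus strand and its reverse complement GACCTT.
Insl3: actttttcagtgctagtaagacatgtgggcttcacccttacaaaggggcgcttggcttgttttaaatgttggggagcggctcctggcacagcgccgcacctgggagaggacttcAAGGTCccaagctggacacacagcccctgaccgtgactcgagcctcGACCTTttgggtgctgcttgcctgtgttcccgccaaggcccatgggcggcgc
The matches begin 136 and 90 bases before the start in RefSeq, which lies 38 bases inside the gene of GENCODE M21. The search covered both strands of the 250 bases before each RefSeq start. AAGGTC was found in 10.6% of all 32851 promoters. The longer form AAGGTCA was found in 0 of the 6 member promoters and in 4.08% of all, and the core was searched only after that. AGATAA, a form of the GATA element, was found in 0 of the 6 and in 9.99% of all promoters. The 6 promoters belong to Lhcgr, Insl3, Fabp3 and, with 3 starts, Prlr. A match describes the letters in the window and not a bound site.

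The receptor gene for Insl3 was read in germ cells and, on few counts, in Sertoli-like cells. Rxfp2 had 1 count in aged and 4 counts in young Leydig-like cells. Sertoli-like cells had 6 counts in the aged library (43.3 CPM, 15.9 to 94.3) and 2 counts in the young library (11.6 CPM). The level of Rxfp2 was 17.4 CPM in aged and 21.5 CPM in young spermatocyte-like cells, close to the 18.5 CPM in aged and 20.4 CPM in young round spermatid-like cells. The hormones that Lhcgr and Prlr read, from the subunit genes Lhb and Cga and from Prl, had 0 counts in Leydig-like cells of both libraries, which allows up to 1.08 CPM in aged and 0.379 CPM in young cells.

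Over all Leydig-like cells the transcription factors were near the same level at both ages. Nr5a1 (ENSMUSG00000026751.14; chr2:38692656-38714542, minus strand, 7 exons) was at 363 CPM in aged Leydig-like cells (341 to 386; 1006 counts), against 387 CPM in young ones (373 to 401; 3064 counts), a ratio of 0.939 (0.873 to 1.01). Gata4 (ENSMUSG00000021944.15; chr14:63198922-63271692, minus strand, 7 exons) was at 118 CPM in aged (105 to 131; 326 counts) and 127 CPM in young Leydig-like cells (119 to 135; 1004 counts), a ratio of 0.928 (0.817 to 1.05). For both genes the intervals of these levels overlap between the ages. In the cluster led by Fetub the ratio was 0.784 (0.658 to 0.939) for Nr5a1 and 0.790 (0.578 to 1.10) for Gata4. In the cluster led by Klk1b21 it was 0.863 (0.637 to 1.14) for Nr5a1 and 1.29 (0.820 to 1.93) for Gata4. The antisense gene Nr5a1os shares no exonic base with Nr5a1 and had 3 counts in aged and 9 in young Leydig-like cells.

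Both factors were also read in Sertoli-like and stromal fibroblast-like cells. In aged cells the order of Nr5a1 was Leydig-like at 363 CPM, Sertoli-like at 93.9 CPM (upper bound 161; 13 counts) and stromal fibroblast-like at 29.8 CPM (10.9 to 64.8; 6 counts). The intervals of the last pair overlap. The 8 young Sertoli-like cells were at 23.3 CPM (4 counts) and the 17 young fibroblast-like cells at 90.6 CPM (7 counts). Gata4 was at 179 CPM in aged fibroblast-like cells (125 to 247; 36 counts), 118 CPM in aged Leydig-like cells and 65.0 CPM in aged Sertoli-like cells (29.7 to 123; 9 counts), and neighbours in that order overlap. In young cells Gata4 was at 116 CPM in fibroblast-like (53.2 to 221; 9 counts) and 127 CPM in Leydig-like cells, with overlapping intervals. Gata4 was thus the exception among the 6 genes, since its level in Leydig-like cells was not above that of every other class in both libraries.

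Fabp3, which carries long-chain fatty acids in the cytosol and is best known from heart and muscle, was the most abundant of the 6 genes. Fabp3 (ENSMUSG00000028773.8; chr4:130308595-130315463, plus strand, 4 exons) was at 6549 CPM in aged Leydig-like cells (6454 to 6645; 18137 counts), against 7769 CPM in young ones (7708 to 7830; 61506 counts), a ratio of 0.843 (0.829 to 0.857). The intervals do not overlap, and the difference lies below the 1.5-fold limit. Per 10000 counts of a cell, the 10th percentile, median and 90th percentile were 30.0, 62.7 and 99.0 in aged and 45.3, 76.9 and 111 in young cells, so the lower level is seen at each of these points. Fabp3-ps1, a pseudogene of Fabp3 with which reads may be shared, was at 33.2 CPM in aged and 37.6 CPM in young Leydig-like cells. Fabp3 was also read in fibroblast-like cells, at 482 CPM in aged and 725 CPM in young ones.

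**Figure D3:**
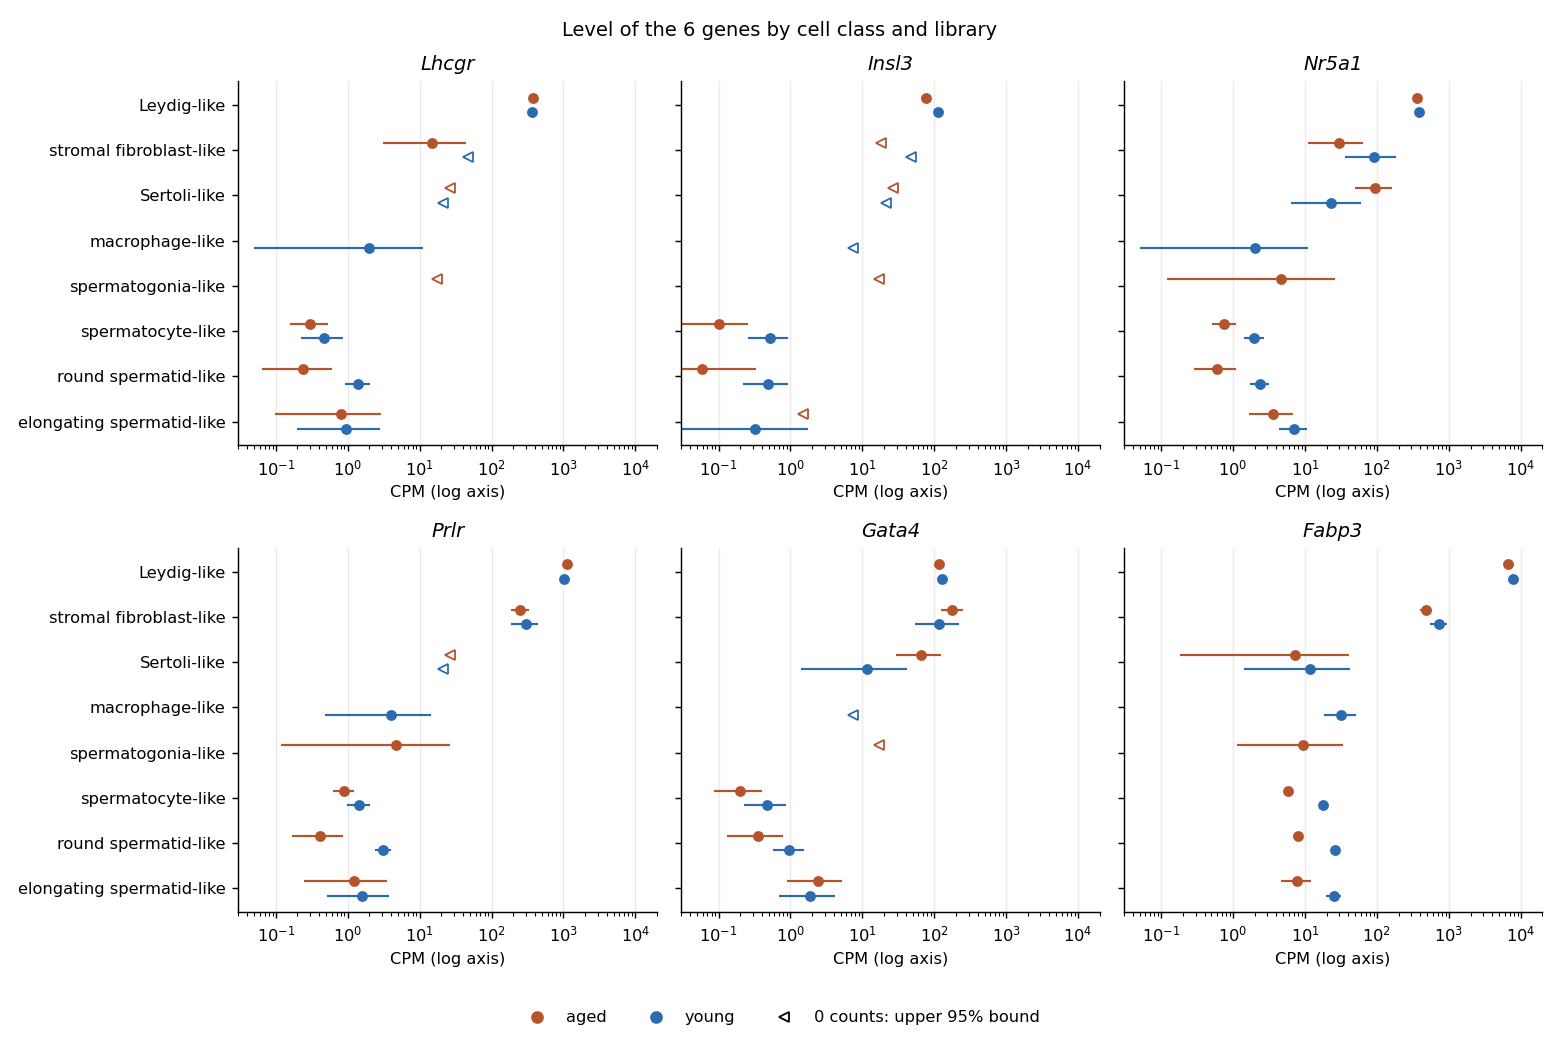
CPM of the 6 genes on log axes by class, with aged (brown) above young (blue) in each row and exact 95% counting intervals. Open triangles give the upper bound where a class had 0 counts. Each gene except Gata4 is highest in Leydig-like cells. Nr5a1, Prlr, Gata4 and Fabp3 are also read in stromal fibroblast-like cells of both libraries, and Nr5a1 and Gata4 also in Sertoli-like cells.

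The fibroblast-like signal was set against the 6 markers of steroid synthesis. For every 100 counts of Fabp3, the steroid enzyme gene Cyp17a1 had 3.09 counts in aged fibroblast-like cells (0.627 to 9.31), against 101 in aged Leydig-like cells. The marker Star, a cholesterol carrier, differed the other way, with 50.5 counts per 100 of Fabp3 in aged fibroblast-like cells (35.1 to 71.9), against 32.5 in aged Leydig-like cells. The remaining 4 markers had 1.03 to 5.15 counts in aged fibroblast-like cells and 22.9 to 45.8 in aged Leydig-like cells. For every 100 counts of Fabp3, Gata4 had 37.1 counts in aged fibroblast-like cells (24.6 to 54.9), against 1.80 in aged Leydig-like cells, and Prlr had 51.5 (35.9 to 73.2) against 17.1. The genes thus stood in other proportions to each other in fibroblast-like than in Leydig-like cells. In germ cells all 6 genes were low, and Fabp3 was the highest, at 5.80 CPM in aged and 17.5 CPM in young spermatocyte-like cells. Protamine and transition protein transcripts of spermatids, which Leydig cells should lack, were at 277 CPM in aged and 791 CPM in young Leydig-like cells, a measure of free RNA that comes to 6.45% (aged) and 11.2% (young) of the level across each library.

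Per kilobase of exonic length, the order of the levels in Leydig-like cells was the same at both ages. Fabp3 led at 7958 CPM per kb in aged and 9440 in young cells, followed by Insl3 at 122 and 181, and Nr5a1 at 85.7 and 91.3. Prlr was at 73.2 and 66.3 CPM per kb in aged and young cells, Lhcgr at 49.4 and 47.6, and Gata4 at 30.2 and 32.5. Counting intervals of neighbours in this order do not overlap. Libraries primed on poly-adenylated RNA may not read whole transcripts, so a level per length is only a rough scale between genes. The place of Insl3 may also rest on how reads shared with Jak3 were counted.

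At equal depth nearly the same shares of aged and young Leydig-like cells had a count of each gene, apart from Insl3. As deposited, Lhcgr was read in 67.5% of aged and 83.7% of young Leydig-like cells, but young cells were deeper. With cells thinned to 2000 counts, which left out 52 aged and 0 young cells, the share was 45.8% (41.5 to 50.2) in 524 aged cells and 50.7% (47.7 to 53.7) in 1087 young cells. Insl3 was read in 29.2% of aged and 51.0% of young cells as deposited, and in 13.0% (10.2 to 16.2) and 19.0% (16.7 to 21.4) after thinning. After thinning the intervals of aged and young cells do not overlap for Insl3 and do overlap for the other 5 genes. Nr5a1 was at 48.1% in aged and 52.1% in young thinned cells, Prlr at 84.0% and 80.4%, Gata4 at 22.1% and 21.3%, and Fabp3 in all cells of both libraries. As background, at most 0.808% of thinned aged and 2.44% of thinned young spermatocyte-like cells had a count of any 1 of the 6 genes, from medians of 17048.5 and 30664.5 counts before thinning.

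**Figure D4:**
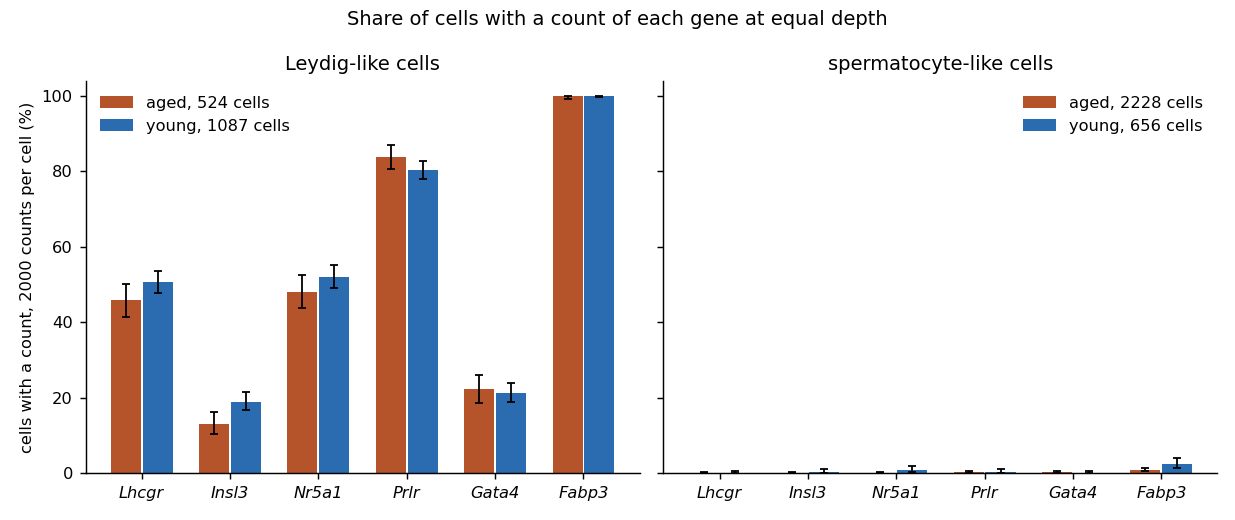
Share of cells with a count of each gene after thinning to 2000 counts per cell, aged (brown) left of young (blue), with exact 95% binomial intervals. Leydig-like cells range from 13.0% (Insl3, aged) to 100% (Fabp3, both libraries), and spermatocyte-like cells lie at 2.44% or less.

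Most Leydig-like cells had counts of several of the 6 genes. The shares below depend on the shares of the single genes, and do not show by themselves that the genes go together. At 2000 counts, 386 of 524 aged Leydig-like cells (73.7%) and 832 of 1087 young ones (76.5%) had a count of 3 or more of the 6 genes. The same held for 0 of 2228 aged and 0 of 656 young spermatocyte-like cells. Among stromal fibroblast-like cells it held for 2 of 27 aged (7.41%) and 4 of 17 young cells (23.5%). Among unnamed cells it held for 28 of 207 aged (13.5%) and 22 of 88 young cells (25%). Cells with and without an Lhcgr count had similar shares of the other genes. Lhcgr averaged only 0.735 counts per aged and 0.753 per young thinned cell, so a missing count is often a matter of sampling. The split could therefore hardly show whether levels of the genes vary together, and Fabp3 was read in all cells. Insl3 was read in 27 of 240 aged cells with Lhcgr (11.25%) and 41 of 284 without (14.4%), and in 105 of 551 young cells with Lhcgr (19.1%) and 101 of 536 without (18.8%). Prlr was read in 85.0% of aged cells with Lhcgr and 83.1% of those without, and in 82.6% and 78.2% of young cells. 

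Among young Leydig-like cells at a finer clustering, Lhcgr and Prlr were higher in 1 cluster than in those led by Klk1b27 and by Klk1b21. In the 203 young cells led by Cstdc2, Ecm1, Aebp1 and Star, Lhcgr was at 459 CPM (426 to 494), against 328 CPM (310 to 347) in the 497 cells led by Klk1b27 and 361 CPM (336 to 386) in the 338 cells led by Klk1b21. Prlr was at 1188 CPM in the first cluster (1134 to 1244), against 982 and 960 CPM, while Nr5a1 was at 383 CPM there, against 379 and 394 CPM. The 49 young cells led by Fetub were at 363 CPM for Lhcgr (299 to 437) and 1022 CPM for Prlr (913 to 1141). Both intervals overlap those of the first cluster. Nr5a1 was at 457 CPM (385 to 538) in these 49 cells. The 29 aged cells of the first cluster were at 564 CPM for Lhcgr (436 to 717) and 1470 CPM for Prlr, and the 529 aged cells led by Fetub at 371 CPM (348 to 396) and 1113 CPM. These clusters were made from other genes of the same cells, so the values are a description.

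A cluster that carried both macrophage and Leydig markers was left unnamed and out of these values. Its 38 aged and 40 young cells with 100 or more Leydig marker counts per 10000 had Lhcgr at 176 and 329 CPM and Fabp3 at 5757 and 6199 CPM, beside macrophage markers that summed to 8600 CPM in aged and 10531 CPM in young cells. Its other 92 aged and 44 young cells had Lhcgr at 43.6 and 36.2 CPM. With the whole cluster added to the Leydig-like cells, the ratio of Lhcgr was 0.945, on the other side of 1 from 1.04.

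Genes with the most similar pattern were named by the Pearson correlation of log2(CPM + 1) over 12 units of class and library with 50 or more cells, among 10136 genes. These units share libraries and depth, and the high values mainly reflect the contrast of Leydig-like with other cells. Aged fibroblast-like and Sertoli-like cells are among the units, so similar levels there partly follow from the choice of these genes. Lhcgr was closest to Nxph3 (r = 0.994), Lrg1 (0.992) and Nckap5 (0.991), and Fabp3 to Nxph3 (0.994), Serpina3c (0.988) and Vcam1 (0.986). Insl3 was closest to Gm37350 (0.998), Klhdc8a (0.997) and Klhl14 (0.997), none of which had a count in aged fibroblast-like or Sertoli-like cells. Prlr was closest to Ass1 (0.987), Smarca1 (0.985) and Cxcl12 (0.984), the last of which was at 367 CPM in aged fibroblast-like cells. Nr5a1 was closest to Susd3 (0.986), Clu (0.978) and Gstm2 (0.978), all read in aged Sertoli-like cells. Gata4 was closest to Kitl (0.994), the ligand of the receptor Kit, then Cpe (0.982) and Prcd (0.977), and Kitl was like Gata4 higher in aged fibroblast-like (238 CPM) than in aged Leydig-like cells (120 CPM).

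Genes around these receptors and factors were counted in 6 lists, with 10 or more counts in Leydig-like cells as the condition, and each count is read against the 11.0% of all tested genes that were at least 1.5-fold higher and the 13.6% that were lower. Of the genes from Lhcgr to cyclic AMP and protein kinase A, 2 of 22 were at least 1.5-fold higher in aged cells and 2 were lower, with a median log2 ratio of 0.14 (0.5 added to each count). Gnas, the stimulatory G protein, was at 2339 CPM in aged and 2340 CPM in young cells, and Prkar1a, a regulatory subunit of protein kinase A, at 457 and 456 CPM. The regulatory subunit gene Prkar2b was at 83.1 CPM in aged and 38.4 CPM in young cells (ratio 2.16, 1.81 to 2.58), and Prkar2a at 52.4 and 33.9 CPM (1.55, 1.25 to 1.90). Neither direction holds in both clusters: the ratio of Prkar2b was 0.475 in the cluster led by Fetub, and that of Prkar2a was 0.793 on 4 aged counts in the cluster led by Klk1b21. With cells thinned to equal depth the ratio of Prkar2a was 1.26. The lower genes, Adcy3 and Prkar1b, are named after their values were seen, and had 7 and 0 counts in aged against 34 and 11 counts in young cells.

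Downstream of Prlr and the related growth hormone receptor, 3 of 15 genes were higher and 1 was lower in aged cells (all genes 11.0% and 13.6%), with a median of 0.10. The higher genes were Socs1, Cish and Socs2, which encode inhibitors of cytokine signalling. Socs1 was at 85.9 CPM in aged and 35.7 CPM in young cells (ratio 2.40, 2.02 to 2.87), Cish at 17.3 and 9.09 CPM (1.91, 1.29 to 2.78, and 1.48 at equal depth), and Socs2, named after its value was seen, at 21.7 and 12.6 CPM (1.72, 1.22 to 2.39). Socs3 was at 382 CPM in aged and 400 CPM in young cells (0.954, but 1.31 in the cluster led by Klk1b21), and Stat3 at 106 and 85.8 CPM (1.24). Igf1, the lower gene, was also named after its value was seen and had 4 counts in aged and 26 in young cells. The same inhibitors respond to many cytokines, and genes of the immune response lead the cluster that holds 538 of the 576 aged Leydig-like cells; the part of other cytokines was not tested. Within the cluster led by Fetub the ratio of Socs1 was 2.96 on 9 young counts, and in the cluster led by Klk1b21 it was 3.19 on 17 aged counts.

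Among other transcription factors of Leydig cells, 3 of 23 were higher and 1 was lower in aged cells (all genes 11.0% and 13.6%), with a median of 0.14. Gata6, the paralog of Gata4, was at 91.7 CPM in aged (254 counts) and 23.1 CPM in young Leydig-like cells (183 counts), a ratio of 3.97 (3.27 to 4.83). The ratio was smaller within clusters. Gata6 was at 95.4 CPM in aged and 60.2 CPM in young cells of the cluster led by Fetub (1.58), and at 27.0 CPM (4 counts) and 21.6 CPM in the cluster led by Klk1b21 (1.25). Cebpb, a factor of acute-phase and steroidogenic genes, was at 311 CPM in aged and 146 CPM in young cells (2.14, 1.96 to 2.34), and Zfpm2, a cofactor of Gata4, had 6 and 4 counts; both are named after their values were seen. Jun was at 1678 and 1331 CPM (1.26) and Fos at 1844 and 1583 CPM (1.16) in aged and young cells.

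Tcf21, a factor of stromal and progenitor cells and the lower gene, was at 18.4 CPM in aged and 51.3 CPM in young cells, 2.78-fold lower. Tcf21 is also on the fibroblast marker list, whose 8 genes summed to 83.4 CPM in aged and 250 CPM in young Leydig-like cells, with Lum and Mgp at 0 in aged cells. Tcf21 itself gave 51 of the 231 aged and 406 of the 1979 young counts in that sum. Pdgfra gave 70 aged and 551 young counts, so the sum is not independent of either gene. The part of fibroblast RNA in the difference of Tcf21 was not tested. In the cluster led by Klk1b21 alone, the ratio of Tcf21 was 0.915 on 7 aged counts, and in the cluster led by Fetub, which holds most aged Leydig-like cells, it was 0.407 (0.216 to 0.825) on 13 young counts.

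Of the other receptors, 3 of 18 were higher and 2 were lower in aged cells (all genes 11.0% and 13.6%), with a median of 0.18. Amhr2, the receptor for anti-Mullerian hormone, was at 412 CPM in aged and 372 CPM in young cells (1.11), but its ratio was 0.787 in the cluster led by Klk1b21 and 0.952 in the one led by Fetub. Scarb1, which takes up cholesterol from lipoproteins, was at 359 and 419 CPM (0.857), and its ratio in the cluster led by Klk1b21 was 0.662. Fgfr1 was at 30.7 CPM in aged and 18.8 CPM in young cells (1.63, 1.23 to 2.14), with ratios of 1.08 on 3 aged counts in the cluster led by Klk1b21 and 1.41 on 7 young counts in the one led by Fetub. Pdgfra was at 25.3 and 69.6 CPM, 2.75-fold lower in aged cells. Pdgfra too is on the fibroblast marker list, and its ratio was 1.52 in the cluster led by Klk1b21 on 16 aged counts and 0.591 in the cluster led by Fetub on 54 aged and 11 young counts. Nr3c1, the glucocorticoid receptor, named after its value was seen, had a ratio of 1.52, and Ednra, the other lower gene, had 4 counts in aged and 31 in young cells.

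Around Fabp3, 1 of 9 carriers, transporters and ligases of the fatty acid list was higher and 2 were lower (all genes 11.0% and 13.6%), with a median of -0.23. Fabp5 was at 143 CPM in aged and 91.3 CPM in young cells (ratio 1.57, 1.38 to 1.77), the other direction from Fabp3, and its ratio was 1.04 on 14 aged counts in the cluster led by Klk1b21 and 1.48 (1.03 to 2.21) in the cluster led by Fetub. Cd36, a fatty acid transporter, was at 905 and 1257 CPM in aged and young cells (0.720, 0.688 to 0.752). Within clusters Cd36 was not lower to the same extent, with a ratio of 0.960 (0.824 to 1.11) in the cluster led by Klk1b21 and of 1.31 (1.14 to 1.52) in the one led by Fetub. The lower genes, Fabp6 and Fabp12, are named after their values were seen, and had 0 and 4 counts in aged against 16 and 36 in young cells. Of 8 relaxin family genes, only Insl6 had 10 or more counts, at 29.6 CPM in aged and 31.8 CPM in young cells (0.930). Its direction depends on the processing, with a ratio of 1.18 at equal depth and 5.92 with free RNA subtracted.

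**Figure D5:**
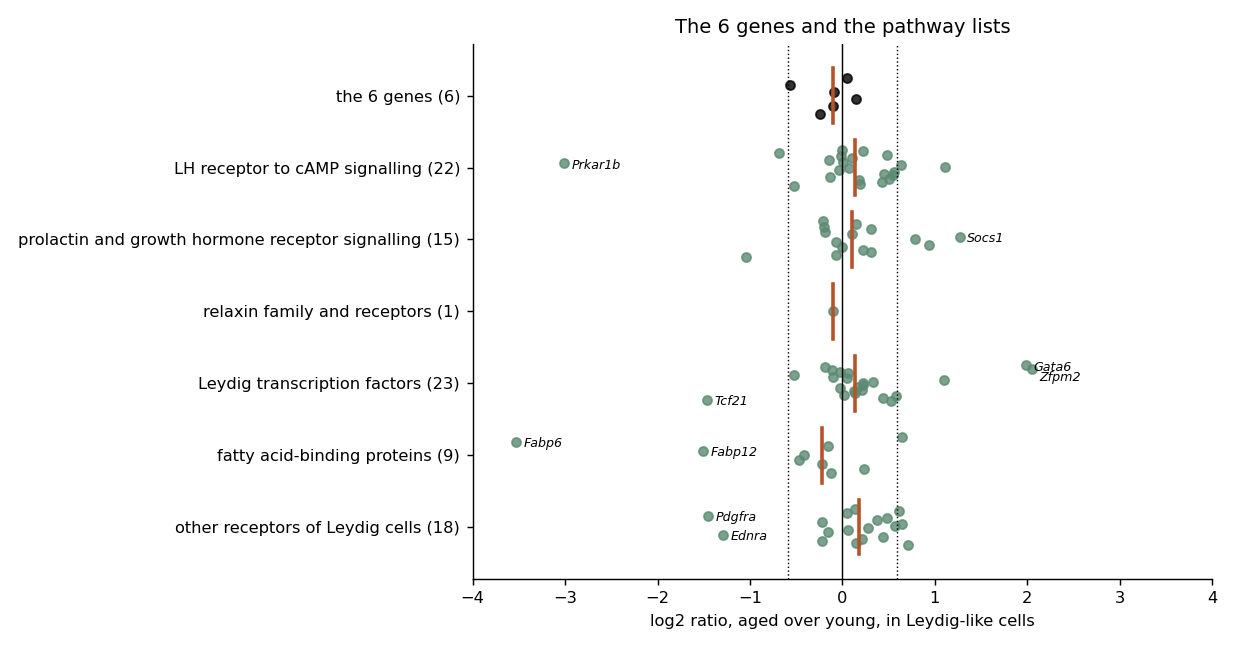
Log2 ratios, aged over young, in Leydig-like cells for the 6 genes and for the tested genes of 6 lists, with the number of genes in brackets. Brown bars are medians, dotted lines mark 1.5-fold, and names are given beyond a log2 ratio of 1.2 in either direction. Gata6 at 1.99 and Socs1 at 1.27 stand apart on the right with over 50 counts, while Prkar1b, Fabp6, Fabp12, Ednra and Zfpm2 rest on few counts.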

How the data were processed

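Cells of 1 aged and 1 young mouse testis library were measured, and each was deposited by the authors as a table of raw integer counts (cells by genes). Per the file headers, the aged table came from the BD Rhapsody pipeline (1.7.1) with a STAR 2.5.2b index, while the table of the young library carries no header. Cell Ranger 2.11 and the genome mm10 are named for both libraries in the submitters' processing notes. The cell calling, the treatment of overlapping genes and the nature of the counts (molecules or reads) are not given in the sources used here. The tables held 66390904 aged and 53413783 young counts in 6823 and 2771 cells.

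The filter asked for 500 counts, 200 genes and a mitochondrially encoded share of 25% or less, and 121 aged (2.08%) and 38 young (1.37%) cells called doublets by Scrublet in scanpy 1.11.5 were removed. Cells were clustered together without the 6 genes (2000 variable genes, 40 principal components, 15 neighbours, leidenalg 0.10.2 at resolution 1). Clusters were named from marker lists by mean z-score, and 19.4% of aged and 3.22% of young cells remained without a name. When each cell was scored alone, 5 aged and 0 young cells lay within 0.1 of the Leydig limit. Counts were summed per class and library and given as CPM, and 95% intervals were exact, from the Poisson distribution (levels), the conditional binomial (ratios) or Clopper-Pearson (shares), and a count of 0 allows 3 counts. The intervals were tested on simulated counts. Coordinates are from GENCODE M21 (GRCm38), and promoters from RefSeq.

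The 6 genes, the marker and pathway lists and the tests were chosen with earlier results of these data known. Named beside the 6 genes are the 3 most correlated genes of each (at 50 CPM or more in a unit), and of each list the 2 most abundant members and the 2 with the largest ratio among those with 50 or more counts; others are marked as chosen later. Some genes that fall under this rule are not reported here. Alternatives to the cell filter, doublets, resolution, class, depth, averaging, scaling, free RNA and the count minimum of the lists were tried singly.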

Additional observations from a re-analysis of the deposited data

How the results depend on the processing

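Ratios are aged over young in Leydig-like cells. Over 11 alternatives listed at the start, Lhcgr stayed between 0.975 and 1.04, Insl3 between 0.638 and 0.676, Nr5a1 between 0.904 and 0.972, Prlr between 1.06 and 1.12, Gata4 between 0.894 and 1.02, and Fabp3 between 0.812 and 0.851. Insl3 lay past the 1.5-fold limit in 7 of the 11. Clustering at resolution 0.5 or 2 gave the same numbers of Leydig-like cells, 576 aged and 1087 young, and the same ratios. These settings are counted among the 11 and among the ratios inside the reported interval below, but they changed nothing. Fabp3 was at 0.824 as a mean over cells, 0.828 with median-of-ratios scaling, which moved the median of 6624 genes by 0.025 on the log2 scale, and 0.812 with free RNA subtracted.

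The remaining alternatives were chosen after seeing the data. In the cluster led by Klk1b21 alone, the ratios were 1.28 for Lhcgr, 0.823 for Insl3, 0.863 for Nr5a1, 1.30 for Prlr, 1.29 for Gata4 and 0.805 for Fabp3. In the cluster led by Fetub alone, they were 0.963 for Lhcgr, 1.24 for Insl3, 0.784 for Nr5a1, 0.790 for Gata4 and 0.955 for Fabp3. With the mixed macrophage and Leydig cluster added, they were 0.945 for Lhcgr, 1.05 for Prlr and 0.807 for Fabp3. With Insl3 and Jak3 counts added over all Leydig-like cells, the ratio was 1.03. The cause of these shifts was not tested. In all, 73 ratios of the 6 genes under an alternative lay inside the reported interval and 18 outside it.

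Thinning moved the shares of cells with a count to 45.8% and 50.7% for Lhcgr in aged and young cells, 13.0% and 19.0% for Insl3, 48.1% and 52.1% for Nr5a1, 84.0% and 80.4% for Prlr, 22.1% and 21.3% for Gata4, and 100% in aged cells for Fabp3. With members of 50 or more counts, the number at least 1.5-fold lower was 0 in the cyclic AMP, prolactin and fatty acid lists and 1 among the other receptors. Of 9 list genes past 1.5-fold, 3 changed direction under an alternative, all within single clusters, Prkar2a at 0.793 and Pdgfra at 1.52 in the one led by Klk1b21 and Prkar2b at 0.475 in the one led by Fetub. Of 12 list genes within 1.5-fold, 6 crossed a ratio of 1. Gnas reached 1.11 and Prkar1a 0.911, Cd36 was 1.31 (Fetub), Amhr2 0.787 (Klk1b21), Socs3 1.31 (Klk1b21), and Insl6 5.92 with free RNA subtracted.

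No paired analysis was possible because each age has 1 library. The depth limits the clusters, where Insl3 had 14 aged counts in the one led by Klk1b21 and 19 young counts in the one led by Fetub, and the 56 aged and 8 young Sertoli-like cells. The number of mice, the pipelines, the digestion yield and age cannot be told apart.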
